A study of Mus musculus with 12 samples.

Results

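The nuclear receptor superfamily of the mouse, including the orphan receptor Nr6a1, was followed across the 4 groups of libraries. Its members were the 46 rows of the expression table, out of 21881, whose gene symbol is that of a family member on a list made from the family's nomenclature; the rule uses no measured value, although the family was picked with earlier results of these data known. Nuclear receptors are transcription factors that bind DNA through a conserved zinc finger domain and, in most members, change their activity when a small lipophilic molecule such as a steroid, a retinoid, vitamin D or a fatty acid fills a pocket in their ligand-binding domain. The retinoid X receptors are partners of many others, and the orphan members have no agreed ligand. Nr6a1, also known as germ cell nuclear factor, is an orphan that acts as a repressor in the embryo and in germ cells, where it silences pluripotency genes.

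RNA came from immortalized mesenchymal stem cell lines of C57BL/6 mouse bone marrow, fibroblast-like cells that can form bone and fat. Each line was grown from a single cell, so a genotype may also carry what was particular to its clone. WT lines were Dicer f/f, with floxed but intact Dicer1, and KO lines were Dicer -/-, without the nuclease that makes mature microRNAs. WT_siCtrl and KO_siCtrl received a control siRNA without a target, KO_let-7g received a synthetic let-7g duplex, and KO_siNr6a1 received an siRNA against Nr6a1. All were transfected at 20 nM and harvested at 48 h, and each group had 3 libraries of polyadenylated RNA.

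The let-7 microRNAs are repressors of many fetal and growth genes, and they reach a target mainly through pairing of their seed, bases 2 to 8, with the 3′ UTR. The mature let-7g of RefSeq (GRCm38.p6) is shown because it is the duplex that was put back, with its seed in capitals; let-7a and let-7i have the same seed. Below it are 3 stretches of the Nr6a1 3′ UTR (GENCODE M21) that hold a full seed match followed by an A, the longest class of match, which is in capitals.
let-7g: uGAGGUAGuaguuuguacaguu
Nr6a1 site at UTR bases 371 to 378: taatgttgacaaagacaaCTACCTCAat
Nr6a1 site at UTR bases 1228 to 1235: aaggaaaggggcattaaaCTACCTCAtg
Nr6a1 site at UTR bases 4135 to 4142: ggcaagtgcatcatgaacCTACCTCAgg
Positions count from the first base after the stop codon in the longest annotated 3′ UTR, which has 4457 bases. The words searched on the transcript strand were CTACCTCA (8mer), CTACCTC without the final A (7mer-m8) and TACCTCA without the first C (7mer-A1). The Nr6a1 UTR also held 5 matches of CTACCTC, at bases 101, 794, 3827, 4145 and 4310, which brings its matches to 8. Nr6a1 was the only 1 of the 26 expressed family members with any of these words in its longest annotated UTR. Among all tested genes with an annotated UTR, 371 of 10222 (3.63%) held an 8mer and 16.8% held any match. Of the members that were not expressed, Esr2 held 1 8mer, Esrrb held 1 8mer and 1 7mer-A1, and Thrb held 1 7mer-A1. A match describes the letters and does not show that let-7g acts there.

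Levels are FPKM, which divides the fragments of a gene by its transcript length and by how many fragments of that library were mapped. The reads per library are not known, and relative depth was 1.34 to 1.82 in the KO_let-7g libraries, 1 to 1.31 in those of KO_siCtrl, 1.13 to 1.57 for KO_siNr6a1 and 1.11 to 1.29 for WT_siCtrl. Dicer1 itself was listed at 6.58 ± 1.45 FPKM in WT_siCtrl (SD, n = 3). The KO groups stood at 3.86 ± 0.214 (KO_siCtrl), 2.70 ± 0.290 (KO_let-7g) and 3.15 ± 0.392 (KO_siNr6a1). Dicer1 was lower in KO_siCtrl than in WT_siCtrl (log2 difference -0.63, adjusted p = 0.00208), and gene totals do not show which exons the remaining fragments came from. Of 15 mesenchymal stem cell markers 14 were expressed in the sense defined below, with Thy1 at or near 0. Their sums were 4240 to 5182 FPKM in WT_siCtrl, 2744 to 2974 in KO_siCtrl, 3212 to 3531 in KO_let-7g and 3280 to 3463 in KO_siNr6a1. Col1a2 had means of 1378 in WT_siCtrl and 283 in KO_siCtrl. Against the sums, Nt5e, Cd44, Ly6a, Vcam1 and Col3a1 had higher means in KO_siCtrl than in WT_siCtrl. No endothelial or epithelial marker was expressed (0 of 7 each). Summed adipocyte markers were 526 to 723 FPKM in WT_siCtrl, against 45.7 to 86.6 in KO_siCtrl, 38.2 to 89.9 in KO_let-7g and 35.9 to 65.8 in KO_siNr6a1. Of these 8 markers 2 were expressed. The defining marker Adipoq was listed at 0.926, 9.91 and 3.01 FPKM in WT_siCtrl and at most 0.0831 in any KO library, while Cidec had a higher mean in KO_siCtrl (0.246) than in WT_siCtrl (0.0495), as did Cfd (0.0807 and 0.0415). Summed osteoblast markers were likewise 428 to 843 in WT_siCtrl and 38.7 to 122 over the KO groups, and summed muscle markers 1278 to 1594 and 19.6 to 53.0. The largest parts of these WT_siCtrl sums were Alpl (mean 543) and Acta2 (1282). Against the sums, Phex had a higher mean in KO_siCtrl (2.54) than in WT_siCtrl (1.575). So did Des in every KO group (3.27 to 3.85, beside 2.48 in WT_siCtrl). With let-7g, summed neural markers were 6.15 to 8.63 FPKM beside 1.95 to 2.72 in KO_siCtrl (Tubb3 at 7.11 and 1.99 on average), and summed blood markers 4.49 to 6.99 beside 1.90 to 2.93 (Cd68 at 5.82 and 1.84). In each list 1 marker was expressed, Tubb3 of the 7 neural and Cd68 of the 10 blood markers. Csf1r, also a blood marker, went the other way, with means of 0.0654 with let-7g and 0.494 in KO_siCtrl. These sums differ with genotype or with let-7g, and their part in the results was not tested. In RNA from whole cultures, fewer cells of a type and less RNA per cell cannot be told apart.

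A member was taken as expressed with at least 1 FPKM in at least 3 of the 12 libraries, and 26 of the 46 passed. That is 56.5% of the family, against 53.9% of all genes in the table. Another 19 were detected below that level, and Nr0b2, which lacks a DNA-binding domain, was listed at 0 in every library. By subfamily, 14 of 18 NR1 members (thyroid hormone, retinoic acid, vitamin D, lipid and clock receptors), 6 of 12 NR2 members (retinoid X and COUP-TF receptors among them), 3 of 8 NR3 members (steroid and estrogen-related receptors), 2 of 3 NR4 members and the only NR6 member were expressed. Neither NR5 member nor NR0 member was.

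**Figure D1:**
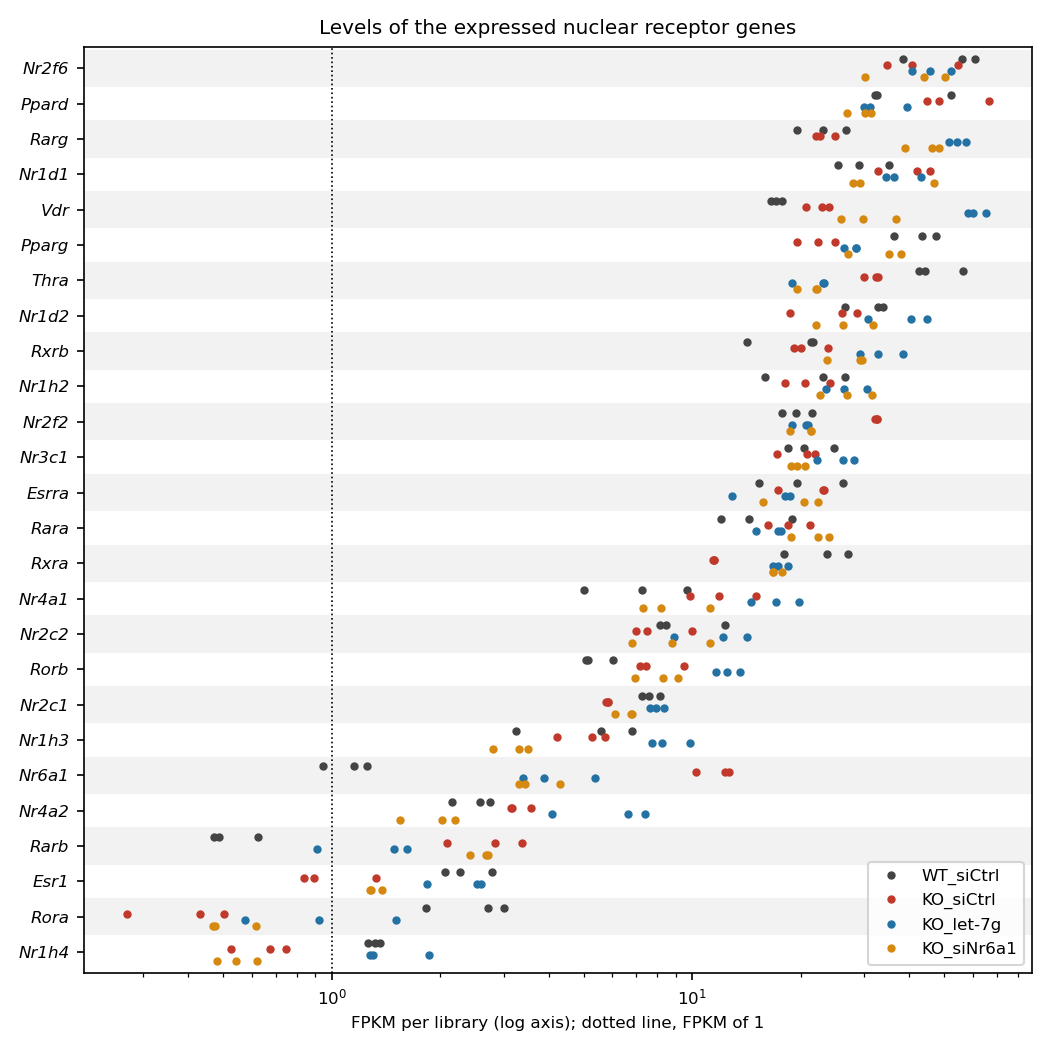
FPKM of the 26 expressed nuclear receptor genes in the 4 groups, on a log axis; each point is 1 of the 12 libraries, coloured by group, and the dotted line marks 1 FPKM. Nr2f6 has the highest mean over the 12 libraries, 45.7 FPKM, although Ppard, Vdr and Rarg have higher group means in KO_siCtrl, KO_let-7g and KO_siNr6a1, while Rora, Nr1h4, Esr1 and Rarb lie near the lower limit for expression.

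The 5 most abundant members over the 12 libraries were Nr2f6 (mean 45.7 FPKM), Ppard (38.8), Rarg (36.3), Nr1d1 (35.6) and Vdr (32.9). Nr2f6, an orphan relative of the COUP-TFs, was listed at 38.4, 55.9 and 60.9 FPKM in WT_siCtrl, 34.7, 40.8 and 54.7 in KO_siCtrl, 40.7, 45.7 and 52.1 in KO_let-7g and 30.1, 50.1 and 43.9 in KO_siNr6a1. The ranges of these 5 genes over the 12 libraries overlapped. These ranges include the differences between groups, so they do not measure replicate spread, and no firm order of neighbours can be read. The order changed with the group: the highest means were those of Nr2f6 (51.7), Thra (47.7) and Pparg (42.4) in WT_siCtrl, of Ppard (53.2), Nr2f6 (43.4) and Nr1d1 (40.1) in KO_siCtrl, of Vdr (61.2), Rarg (54.3) and Nr2f6 (46.2) in KO_let-7g and of Rarg (44.5), Nr2f6 (41.4) and Nr1d1 (34.7) in KO_siNr6a1. Nr1d1, the clock repressor Rev-erb alpha, was listed at 25.3, 29.005 and 35.1 FPKM in WT_siCtrl, 32.8, 45.6 and 41.99 in KO_siCtrl, 34.4, 43.1 and 36.2 in KO_let-7g and 27.9, 46.9 and 29.2 in KO_siNr6a1. Below them, Pparg (31.5), Thra (30.6) and Nr1d2 (30.2) followed, then Rxrb (25.2), Nr1h2 (24.1), Nr2f2 (23.1), Nr3c1 (21.5), Esrra (19.4), Rara (18.0) and Rxra (17.2). The lower levels belonged to Nr4a1 (11.4), Nr2c2 (9.61), Rorb (8.53), Nr2c1 (7.0), Nr1h3 (5.52), Nr6a1 (5.19), Nr4a2 (3.44), Rarb (1.81), Esr1 (1.76), Rora (1.11) and Nr1h4 (0.997). The median over the 26 members was 18.7 FPKM, beside 17.0 over all genes tested.

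Nr6a1 had the largest difference between the genotypes of any member, and it checks the labels because it is the target of the siRNA. It was listed at 1.16, 0.945 and 1.25 FPKM in WT_siCtrl, 12.6, 12.3 and 10.2 in KO_siCtrl, 3.87, 5.38 and 3.39 in KO_let-7g and 3.43, 4.30 and 3.31 in KO_siNr6a1. No library of KO_siCtrl came near one of WT_siCtrl, and the libraries of both treatments lay between these groups, overlapping with each other. The group means were 1.12 ± 0.158, 11.7 ± 1.32, 4.22 ± 1.04 and 3.68 ± 0.539 FPKM (SD, n = 3). KO_siCtrl was 10.5 times WT_siCtrl, KO_let-7g was 0.359 times KO_siCtrl and KO_siNr6a1 was 0.314 times KO_siCtrl. For each of these an exact permutation test (two-sided, 3 libraries a group) gave p = 0.1, the smallest p it allows (0.12 after adjustment over 6 pairs of groups). On the log2(FPKM + 1) scale, which is used for all differences below and understates changes of low genes, Nr6a1 rose by 2.58 ± 0.15 in KO_siCtrl against WT_siCtrl (adjusted p = 1.28e-07; differences are given ± SE from limma). It fell by 1.30 with let-7g (adjusted p = 4.67e-05) and by 1.44 with its siRNA (adjusted p = 7.34e-05).

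**Figure D2:**
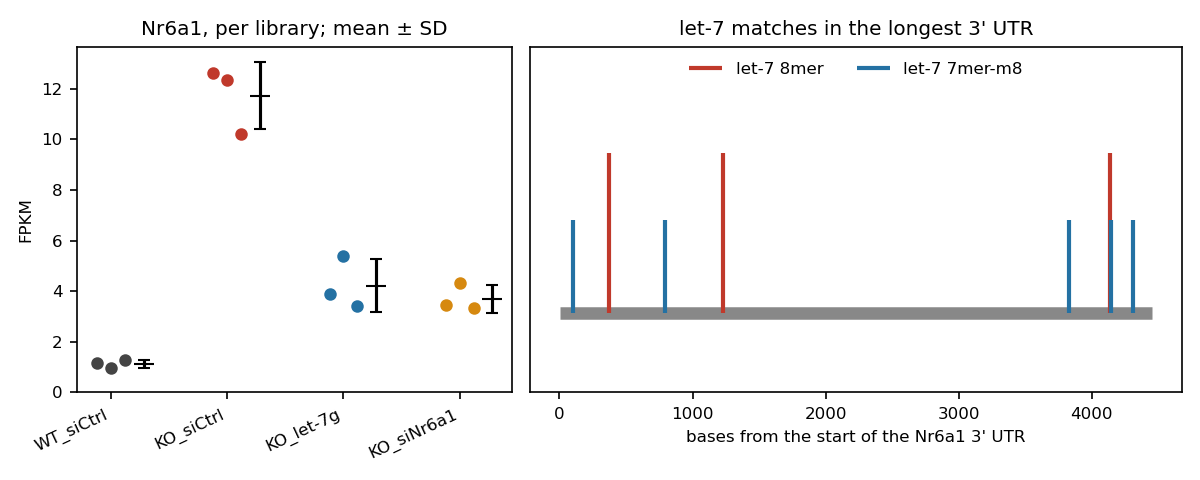
Nr6a1 in FPKM in each of the 12 libraries (points) with the mean and SD of each group, and, beside it, the places of its let-7 matches along the 3′ UTR in bases from the stop codon. KO_siCtrl sits at 10.2 to 12.6, and KO_let-7g and KO_siNr6a1 lie together at 3.31 to 5.38, above WT_siCtrl at 0.945 to 1.25.

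Between the treatments, Nr6a1 differed by 0.14 ± 0.15 on the log2 scale (adjusted p = 0.466; 95% interval -0.18 to 0.47; exact permutation p = 0.6). Its sign turned when KO_let-7g replicate 1 was left out (-0.01) and under quantile scaling (-0.03), so no order of the treatments can be read. Neither treatment brought Nr6a1 to the level of WT_siCtrl: KO_let-7g remained higher by 1.28 ± 0.15 (adjusted p = 2.59e-05) and KO_siNr6a1 by 1.14 ± 0.15 (adjusted p = 6.21e-05). The 5 genes with the most similar profile over the 12 libraries, by Pearson's r of log2(FPKM + 1), were Gldc (0.99), Ccnyl1 (0.98), Cmbl (0.98), Arg2 (0.97) and Fnta (0.97). These points share 12 libraries that fall into 4 groups, so r is a description. Arg2, an arginase, made the largest step of the 5, from 2.20 ± 0.618 FPKM in WT_siCtrl to 64.0 ± 9.07 in KO_siCtrl, with 11.3 ± 1.46 in KO_let-7g and 14.0 ± 2.26 in KO_siNr6a1.

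Across the 26 expressed members, 13 were called in KO_siCtrl against WT_siCtrl by limma at an adjusted p under 0.05 over all 11801 genes tested. That is 50% of the members where 54.3% of all genes were called; 6 were higher (29.1% of all genes) and 7 lower (25.2%). With let-7g against KO_siCtrl, 18 members were called, 69.2% where the share of all genes was 45.6%; 13 were higher (27.5% of all genes) and 5 lower (18.2%). With the siRNA against Nr6a1, 9 members were called, 34.6% beside 29.4% of all genes, with 4 higher (13.2% of all genes) and 5 lower (16.3%). These 5 include Nr6a1 itself, the target of the siRNA, whose fall belongs to the treatment. The comparisons of let-7g and of the siRNA use the same KO_siCtrl libraries. The counts for loss of Dicer1 and for let-7g include Rarb, Rora and Nr1h4, which passed the filter through the groups where they are high. The family median was 0.01 for loss of Dicer1 (0.04 over all genes tested), 0.43 for let-7g (0.08) and 0.00 for the siRNA (-0.06). With the replicate number as a block, 10 instead of 6 members were higher in KO_siCtrl than in WT_siCtrl. Without the block, a total of 20 members were called in at least 1 of these comparisons or between the treatments, and Rara, Nr1d1, Nr1h2, Nr2c2, Nr2f6 and Esrra in none. The matching share of all genes was not counted, so the 20 cannot be read as a trait of the family. Under the block, Rara and Nr1d1 were called in KO_siCtrl against WT_siCtrl (adjusted p = 0.016 and 0.024). It also called Nr1h2, Nr2c2 and Esrra with let-7g (0.0165, 0.00629 and 0.00466), so that Nr2f6 alone remained in none.

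**Figure D3:**
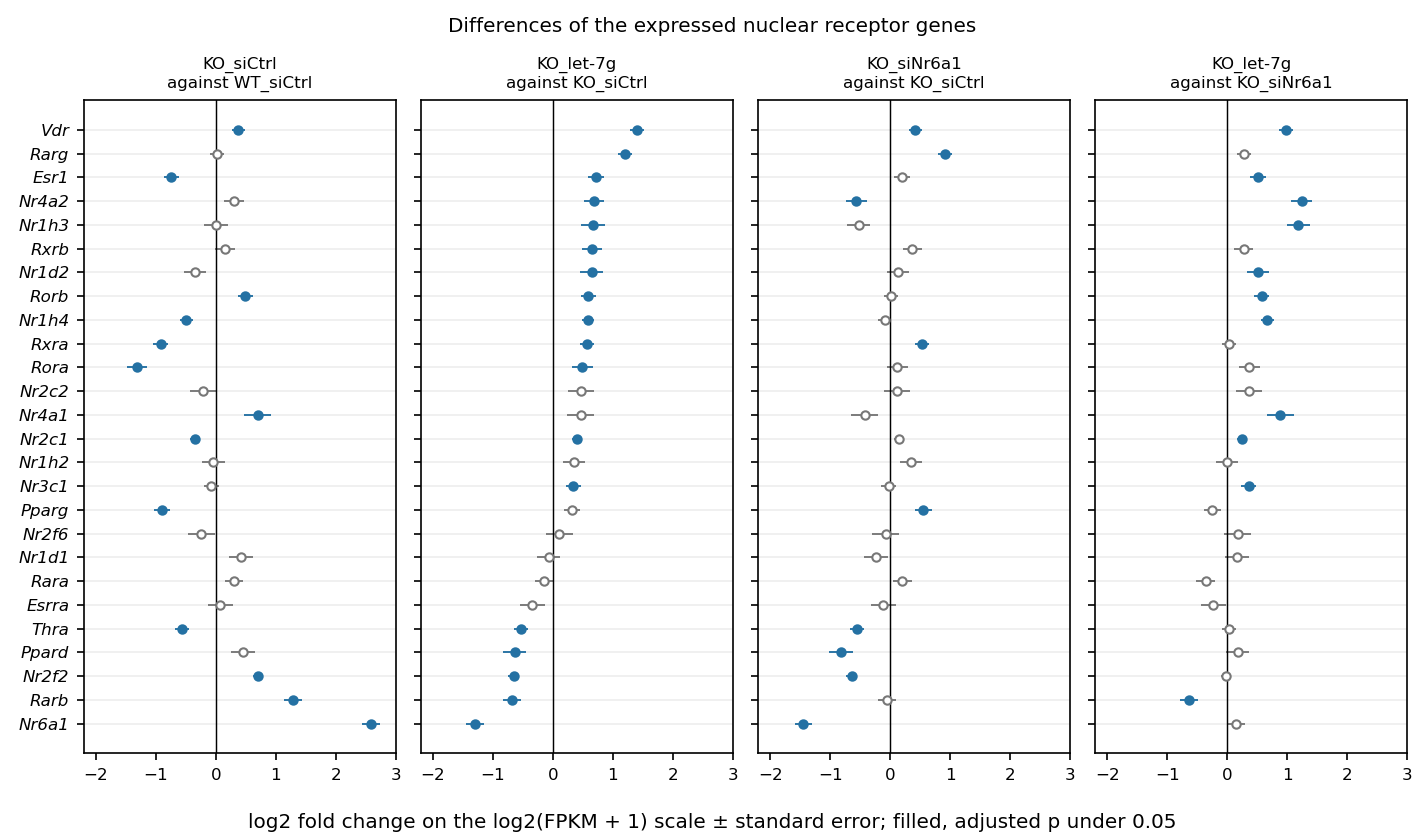
Log2(FPKM + 1) differences of the 26 expressed nuclear receptor genes, 1 panel for each comparison, with bars of 1 SE; filled points are called. Nr6a1 lies at the far right for KO_siCtrl against WT_siCtrl (2.59) and at the far left with both treatments (-1.30 and -1.44), and Vdr (1.40) and Rarg (1.2) lead the rises with let-7g.

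Among the retinoid X receptors, the shared partners, Rxra fell in KO_siCtrl and rose with both treatments, and Rxrb rose with let-7g. Rxra was listed at 17.99, 23.6 and 27.1 FPKM in WT_siCtrl, 11.5, 11.4 and 11.5 in KO_siCtrl, 18.5, 17.3 and 16.7 in KO_let-7g and 16.7, 17.8 and 16.7 in KO_siNr6a1. The KO_siCtrl libraries lay below all others, and those of both treatments lay between 16.7 and 18.5, at or below the lowest WT_siCtrl library, which was at 18.0, apart from 1 KO_let-7g library at 18.5. The differences were -0.92 ± 0.12 in KO_siCtrl against WT_siCtrl (adjusted p = 6.87e-05), 0.57 ± 0.12 with let-7g (adjusted p = 0.00262) and 0.53 ± 0.12 with the siRNA (adjusted p = 0.00674). Rxrb was listed at 14.2, 21.4 and 21.6 FPKM in WT_siCtrl, 20.03, 19.1 and 23.8 in KO_siCtrl, 29.2, 32.8 and 38.4 in KO_let-7g and 23.7, 29.2 and 29.5 in KO_siNr6a1. Its KO_let-7g libraries all stood above KO_siCtrl and WT_siCtrl and overlapped with KO_siNr6a1 at 29.2. The rise was 0.65 ± 0.16 with let-7g (adjusted p = 0.00776). The siRNA gave 0.37, which was not called (adjusted p = 0.112) unless the replicate number was a block (0.0141). Rxrg, the third partner, was listed at no more than 0.0450 FPKM.

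Of the retinoic acid receptors, which switch genes on when retinoic acid binds, Rarg and Rarb moved in different comparisons and Rara in none of the first 4. Rarg was listed at 19.5, 26.8 and 23.1 FPKM in WT_siCtrl, 22.01, 22.6 and 24.9 in KO_siCtrl, 51.4, 54.1 and 57.5 in KO_let-7g and 38.95, 48.5 and 46.2 in KO_siNr6a1. WT_siCtrl and KO_siCtrl overlapped, and every treated library lay above both. Rarg rose by 1.2 ± 0.12 with let-7g (adjusted p = 1.90e-05) and by 0.91 ± 0.12 with the siRNA (adjusted p = 0.000265). In KO_siCtrl against WT_siCtrl it differed by 0.01 (95% interval -0.24 to 0.27), a value whose sign changes with the scaling. Rarb, itself a classic retinoic acid target, was listed at 0.488, 0.624 and 0.473 FPKM in WT_siCtrl, 2.84, 3.37 and 2.09 in KO_siCtrl, 1.49, 1.61 and 0.911 in KO_let-7g and 2.71, 2.68 and 2.41 in KO_siNr6a1. KO_siCtrl and KO_siNr6a1 shared the upper range, KO_let-7g lay below both, and WT_siCtrl was lowest. Rarb reached 1 FPKM in 8 libraries, all of KO groups, so it passed the filter through the groups where it is high. Rarb rose by 1.29 ± 0.15 in KO_siCtrl (adjusted p = 2.52e-05), fell by 0.69 with let-7g (adjusted p = 0.00279) and was not called with the siRNA (adjusted p = 0.829). Its exons share 1793 bases with Top2b on the opposite strand, and since no source used here says whether counting used the strand, reads of the pair cannot be told apart there; Top2b differed by -0.91 in KO_siCtrl, opposite in sign to Rarb. Rara was at 15.1 ± 3.50, 18.6 ± 2.50, 16.7 ± 1.46 and 21.6 ± 2.61 FPKM in WT_siCtrl, KO_siCtrl, KO_let-7g and KO_siNr6a1. Its difference of 0.30 in KO_siCtrl (adjusted p = 0.123) was called with the replicate block (0.016) and without WT_siCtrl replicate 2 (0.0175). Between the treatments Rara differed by -0.35 (adjusted p = 0.0913), which was called with the block (0.00936) and in 6 other alternatives, among them all 3 scalings (0.0223 to 0.0479).

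Genes of retinoid metabolism and response showed calls in both directions. Of the 24 genes listed 12 were tested, and 5 were higher and 3 lower in KO_siCtrl than in WT_siCtrl (median 0.21; 29.1%, 25.2% and 0.04). For this and each later list, the parentheses hold the median difference of the list and then, for all genes tested, the share called higher, the share called lower and the median difference. Brackets give the range over the alternatives for a count of at least 5 that moved by over 1.5 times in any of them. With let-7g 2 were higher and 5 [2 to 7] lower (median -0.35; 27.5%, 18.2% and 0.08), and with the siRNA 5 [2 to 5] were higher and 2 lower (median 0.26; 13.2%, 16.3% and -0.06). Rdh10, which makes retinal from retinol, rose in KO_siCtrl (8.27 ± 0.770 FPKM in WT_siCtrl and 19.3 ± 0.539 in KO_siCtrl; log2 difference 1.13, adjusted p = 2.84e-06) and fell with let-7g to 10.1 ± 1.23 (adjusted p = 3.86e-05). Cyp26b1, which degrades retinoic acid, was at 2.63 ± 0.195 FPKM in KO_siCtrl and 0.840 ± 0.113 in KO_let-7g (adjusted p = 0.000139). Between the treatments 0 were higher and 6 [3 to 8] lower in KO_let-7g than in KO_siNr6a1 (median -0.42; 27.6%, 13.3% and 0.12).

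Vdr, the vitamin D receptor, showed the largest rise with let-7g of any member. It was listed at 17.8, 16.5 and 17.04 FPKM in WT_siCtrl, 20.7, 22.96 and 23.9 in KO_siCtrl, 58.2, 60.003 and 65.3 in KO_let-7g and 29.8, 25.8 and 36.8 in KO_siNr6a1. The groups were in the order WT_siCtrl, KO_siCtrl, KO_siNr6a1, KO_let-7g with no overlap of libraries, and the gap below KO_let-7g was the widest. The rise was 1.40 ± 0.11 with let-7g (adjusted p = 6.26e-06) and 0.98 ± 0.11 in KO_let-7g against KO_siNr6a1 (adjusted p = 9.55e-05). The smaller steps were 0.38 ± 0.11 in KO_siCtrl against WT_siCtrl (adjusted p = 0.0153) and 0.42 ± 0.11 with the siRNA (adjusted p = 0.0165). The first of these was not called without KO_siCtrl replicate 2 (0.33, adjusted p = 0.0533), and the second neither without KO_siCtrl replicate 0 (0.37, adjusted p = 0.062) nor without KO_siNr6a1 replicate 2 (0.29, adjusted p = 0.0578).

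Thra, the thyroid hormone receptor alpha, was the member that fell in each of the first 3 comparisons. It was listed at 42.4, 44.3 and 56.3 FPKM in WT_siCtrl, 32.8, 29.9 and 32.4 in KO_siCtrl, 23.2, 22.98 and 18.9 in KO_let-7g and 22.2, 21.97 and 19.5 in KO_siNr6a1. All KO_siCtrl libraries lay below WT_siCtrl, and all treated libraries lay below KO_siCtrl and overlapped with each other. The differences were -0.56 ± 0.12 in KO_siCtrl (adjusted p = 0.00168), -0.53 ± 0.12 with let-7g (adjusted p = 0.00323) and -0.56 ± 0.12 with the siRNA (adjusted p = 0.00455). The last exons of Thra and Nr1d1 share 263 bases on opposite strands, and Nr1d1 was not called in these comparisons. Its 0.42 in KO_siCtrl (adjusted p = 0.0979) was called with the replicate block (0.024) and without KO_siNr6a1 replicate 1 (0.0354). Of the 18 vitamin D and thyroid hormone genes listed 6 were tested, and 2 were higher and 3 lower in KO_siCtrl (median -0.38; 29.1%, 25.2% and 0.04), 1 higher and 3 lower with let-7g (median -0.23; 27.5%, 18.2% and 0.08) and 1 higher and 2 lower with the siRNA (median -0.10; 13.2%, 16.3% and -0.06). Between the treatments limma called 0 of them. Bglap, the bone matrix protein osteocalcin and a known vitamin D target, was at 41.3 ± 20.1 FPKM in WT_siCtrl and 0.474 ± 0.497 in KO_siCtrl (adjusted p = 1.19e-06), and it is also one of the osteoblast markers. Dio3, which inactivates thyroid hormone, was at 0.108 ± 0.104 FPKM in WT_siCtrl and 3.81 ± 1.77 in KO_siCtrl (adjusted p = 2.18e-05). Me1, a malic enzyme known to respond to thyroid hormone, rose with let-7g (0.48, adjusted p = 0.00115) and with the siRNA (0.56, adjusted p = 0.000923).

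The fatty acid receptors Pparg and Ppard were both abundant and differed in direction. Pparg, the master regulator of fat cells, was listed at 43.5, 47.5 and 36.3 FPKM in WT_siCtrl, 19.5, 24.9 and 22.3 in KO_siCtrl, 26.4, 28.4 and 28.5 in KO_let-7g and 27.1, 35.1 and 37.98 in KO_siNr6a1. WT_siCtrl overlapped with KO_siNr6a1 alone, and KO_siCtrl was lowest, with both treatments above it. Pparg fell by 0.90 in KO_siCtrl against WT_siCtrl (adjusted p = 0.000213) and rose by 0.56 ± 0.14 with the siRNA (adjusted p = 0.0109). With let-7g the difference was 0.31 (adjusted p = 0.0826; called with the replicate block, 0.0387). Summed adipocyte markers were also highest in WT_siCtrl, 526 to 723 FPKM, and stayed at 38.2 to 89.9 with let-7g and 35.9 to 65.8 with the siRNA. Ppard, which drives fatty acid oxidation in many tissues, was listed at 32.2, 32.5 and 52.1 FPKM in WT_siCtrl, 48.3, 44.8 and 66.5 in KO_siCtrl, 31.01, 30.003 and 39.5 in KO_let-7g and 26.8, 30.04 and 31.4 in KO_siNr6a1. Its highest library was KO_siCtrl replicate 2, and the treated libraries all lay below KO_siCtrl. Ppard fell by 0.64 with let-7g (adjusted p = 0.02) and by 0.82 with the siRNA (adjusted p = 0.00984). The fall with let-7g was not called without KO_siCtrl replicate 2 (-0.47, adjusted p = 0.0794), KO_let-7g replicate 0 (-0.59, 0.0625) or KO_let-7g replicate 1 (-0.57, 0.0685). In KO_siCtrl against WT_siCtrl the difference was 0.46 (adjusted p = 0.0696; 0.00331 with the replicate block). Ppara was not expressed.

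PPAR lipid targets, genes of fat storage and fatty acid oxidation, had 16 of 29 genes tested, with 5 higher and 4 lower in KO_siCtrl (median 0.21; 29.1%, 25.2% and 0.04), 4 higher and 6 lower with let-7g (median 0.01; 27.5%, 18.2% and 0.08), 4 higher and 2 lower with the siRNA (median -0.14; 13.2%, 16.3% and -0.06) and 3 higher and 4 lower between the treatments (median -0.08; 27.6%, 13.3% and 0.12). Fabp4, the fatty acid carrier of fat cells and one of the adipocyte markers, was at 302 ± 49.9 FPKM in WT_siCtrl and 1.93 ± 1.67 in KO_siCtrl (log2 difference -6.87, adjusted p = 9.29e-08). Angptl4, a secreted lipase inhibitor, fell with let-7g (-1.26, adjusted p = 4.82e-06) and with the siRNA (-0.57, adjusted p = 0.00148).

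The sterol and bile acid receptors rose with let-7g except for Nr1h2, which was not called. Nr1h3 (LXR alpha), a sensor of oxidized cholesterol, was listed at 3.24, 5.58 and 6.80 FPKM in WT_siCtrl, 4.22, 5.27 and 5.72 in KO_siCtrl, 7.71, 8.24 and 9.87 in KO_let-7g and 2.80, 3.50 and 3.31 in KO_siNr6a1. KO_let-7g lay above and KO_siNr6a1 below every KO_siCtrl library, while WT_siCtrl spanned a wide range. The rise with let-7g was 0.66 ± 0.20 (adjusted p = 0.0176), and it was not called when KO_let-7g replicate 2 (0.57, adjusted p = 0.0647) or KO_siCtrl replicate 0 (0.56, 0.0677) was left out. With the siRNA the difference was -0.53 (adjusted p = 0.0674; 0.00795 with the replicate block), and KO_let-7g exceeded KO_siNr6a1 by 1.19 ± 0.20 (adjusted p = 0.000834). Nr1h4 (FXR), the bile acid receptor, was low and was listed at 1.32, 1.36 and 1.26 FPKM in WT_siCtrl, 0.526, 0.674 and 0.745 in KO_siCtrl, 1.27, 1.86 and 1.30 in KO_let-7g and 0.622, 0.481 and 0.544 in KO_siNr6a1. It fell by 0.49 in KO_siCtrl (adjusted p = 0.0023) and rose by 0.58 ± 0.11 with let-7g (adjusted p = 0.00106), and KO_let-7g overlapped with WT_siCtrl. Nr1h4 reached 1 FPKM in 6 libraries, those of WT_siCtrl and KO_let-7g, so it passed the filter through the groups where it is high. Nr1h2 (LXR beta) was at 21.9 ± 5.45, 20.9 ± 3.05, 26.8 ± 3.53 and 26.9 ± 4.44 FPKM in the order of groups used above. Its differences of 0.35 with let-7g (adjusted p = 0.153) and 0.35 with the siRNA (adjusted p = 0.183) were called with the replicate block (0.0165 and 0.0212), the second also with library weights (0.013).

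LXR and FXR targets, which move cholesterol and make fatty acids, had 13 of 22 genes tested, with 6 higher and 3 lower in KO_siCtrl (median -0.08; 29.1%, 25.2% and 0.04), 4 higher and 1 lower with let-7g (median 0.17; 27.5%, 18.2% and 0.08) and 7 higher and 1 lower with the siRNA (median 0.57; 13.2%, 16.3% and -0.06). Between the treatments 2 were higher and 5 [4 to 8] lower in KO_let-7g (median -0.32; 27.6%, 13.3% and 0.12). Scd1, a fatty acid desaturase, fell in KO_siCtrl (113 ± 20.4 FPKM in WT_siCtrl and 50.7 ± 2.86 in KO_siCtrl; adjusted p = 4.29e-05). It rose with let-7g (1.04, adjusted p = 0.000128) and with the siRNA (1.37, adjusted p = 6.77e-05). Mylip, the LXR-induced ligase that degrades the LDL receptor, rose with the siRNA (13.7 ± 1.56 FPKM in KO_siCtrl and 28.3 ± 1.02 in KO_siNr6a1; adjusted p = 0.000414), and Abcg1, a cholesterol exporter, fell with let-7g (12.9 ± 0.519 FPKM in KO_siCtrl and 4.50 ± 0.880 in KO_let-7g; adjusted p = 0.000101).

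Of the clock receptors, the RORs activate and the Rev-erbs repress the same DNA elements. Rora was listed at 2.995, 2.72 and 1.83 FPKM in WT_siCtrl, 0.271, 0.503 and 0.433 in KO_siCtrl, 1.51, 0.576 and 0.921 in KO_let-7g and 0.618, 0.475 and 0.469 in KO_siNr6a1. Every KO library lay below every WT_siCtrl library, and KO_let-7g lay above KO_siCtrl and overlapped with KO_siNr6a1. Rora fell by 1.31 in KO_siCtrl (adjusted p = 7.48e-05). It reached 1 FPKM in 4 libraries, the 3 of WT_siCtrl and 1 of KO_let-7g, so it passed the filter through the group where it is high. The rise with let-7g was 0.49 ± 0.17 (adjusted p = 0.0374) and rested on KO_let-7g replicate 0, at 1.51 FPKM, without which it was 0.32 (adjusted p = 0.15). It also lost its call without each of 5 other libraries: KO_siCtrl replicates 0 (0.42, adjusted p = 0.117), 1 (0.54, 0.0516) and 2 (0.51, 0.0683), KO_let-7g replicate 2 (0.51, 0.0704) and KO_siNr6a1 replicate 2 (0.49, 0.0507). Quantile scaling (0.30, adjusted p = 0.217) and median of ratios scaling (0.45, 0.0553) ended the call too. So did no filter (0.0787) and a fit of only the 2 groups compared (0.0567). Rorb, better known from neurons, was listed at 6.03, 5.13 and 5.07 FPKM in WT_siCtrl, 7.45, 9.48 and 7.18 in KO_siCtrl, 12.4, 13.6 and 11.6 in KO_let-7g and 6.96, 9.11 and 8.32 in KO_siNr6a1. WT_siCtrl was lowest and KO_let-7g highest, with KO_siCtrl and KO_siNr6a1 overlapping between them. Summed neural markers were also highest in KO_let-7g, as given above, but Tubb3 was the only 1 of these 7 that was expressed. Rorb rose by 0.49 ± 0.12 in KO_siCtrl (adjusted p = 0.00623), by 0.59 ± 0.12 with let-7g (adjusted p = 0.00269) and was not called with the siRNA (adjusted p = 0.942).

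Nr1d2 (Rev-erb beta) was listed at 32.8, 33.8 and 26.5 FPKM in WT_siCtrl, 25.9, 28.6 and 18.6 in KO_siCtrl, 40.4, 44.9 and 30.7 in KO_let-7g and 26.2, 31.8 and 22.1 in KO_siNr6a1. In each group replicate 2 was lowest and replicate 1 highest, and KO_let-7g lay above KO_siCtrl throughout. The rise with let-7g was 0.65 ± 0.19 (adjusted p = 0.0162, and 3.3e-05 with the replicate block). It was not called without KO_siCtrl replicate 2 (0.47, adjusted p = 0.0639), KO_let-7g replicate 0 (0.61, 0.0513) or KO_let-7g replicate 1 (0.53, 0.0655). In KO_siCtrl against WT_siCtrl the difference was -0.35 (adjusted p = 0.144; 0.00104 with the replicate block). Of the 18 clock genes listed 17 were tested, with 7 higher and 3 lower in KO_siCtrl (median 0.32; 29.1%, 25.2% and 0.04), 7 higher and 5 [3 to 6] lower with let-7g (median 0.31; 27.5%, 18.2% and 0.08), 3 higher and 1 lower with the siRNA (median 0.15; 13.2%, 16.3% and -0.06) and 3 higher and 4 lower between the treatments (median -0.06; 27.6%, 13.3% and 0.12). Hlf, an output factor of the clock, was at 0.528 ± 0.132 FPKM in WT_siCtrl and 7.31 ± 1.19 in KO_siCtrl (adjusted p = 9.50e-08) and fell to 2.50 ± 0.347 with let-7g (adjusted p = 3.39e-05). Per2, a core repressor, rose from 4.19 ± 0.673 in KO_siCtrl to 8.63 ± 1.0 with let-7g (adjusted p = 0.0001) and 8.17 ± 0.330 with the siRNA (adjusted p = 0.000414).

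Nr2f2 (COUP-TFII), an orphan that regulates mesenchymal cell fate, was listed at 19.3, 17.7 and 21.4 FPKM in WT_siCtrl, 32.05, 32.5 and 32.6 in KO_siCtrl, 18.9, 20.7 and 20.97 in KO_let-7g and 18.7, 21.3 and 21.3 in KO_siNr6a1. The 3 KO_siCtrl libraries stood apart at 32.0 to 32.6, and the other 9 shared 17.7 to 21.4. Nr2f2 rose by 0.71 ± 0.09 in KO_siCtrl (adjusted p = 4.07e-05), fell by 0.66 with let-7g (adjusted p = 0.000115) and by 0.64 with the siRNA (adjusted p = 0.000345). Against WT_siCtrl, KO_let-7g differed by 0.05 (95% interval -0.14 to 0.24) and KO_siNr6a1 by 0.07 (-0.12 to 0.25), and the first of these changed sign with the scaling. Nr2c1 (TR2), an orphan that forms dimers with Nr2c2, was listed at 7.24, 8.16 and 7.61 FPKM in WT_siCtrl, 5.85, 5.82 and 5.75 in KO_siCtrl, 8.33, 7.63 and 7.92 in KO_let-7g and 6.82, 6.12 and 6.77 in KO_siNr6a1. KO_siCtrl lay below all other libraries. Nr2c1 fell by 0.35 in KO_siCtrl (adjusted p = 0.0032) and rose by 0.40 ± 0.08 with let-7g (adjusted p = 0.00192). With the siRNA the mean was 6.57 ± 0.392 and the difference was not called (adjusted p = 0.173).

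Nr2c2 (TR4) was at 9.64 ± 2.33, 8.13 ± 1.60, 11.7 ± 2.69 and 8.92 ± 2.19 FPKM in WT_siCtrl, KO_siCtrl, KO_let-7g and KO_siNr6a1. It differed by 0.47 with let-7g (adjusted p = 0.0981; 0.00629 with the replicate block), and by 0.36 between the treatments (adjusted p = 0.206; 0.0241 with the block). Its exons share 4590 bases with Mrps25 on the opposite strand. Nr2f6, given above, shares 1622 with Ocel1 in the same way and was not called in any of the 6 comparisons; with the replicate block it was called in KO_siNr6a1 against WT_siCtrl (-0.32, adjusted p = 0.0295).

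**Figure D4:**
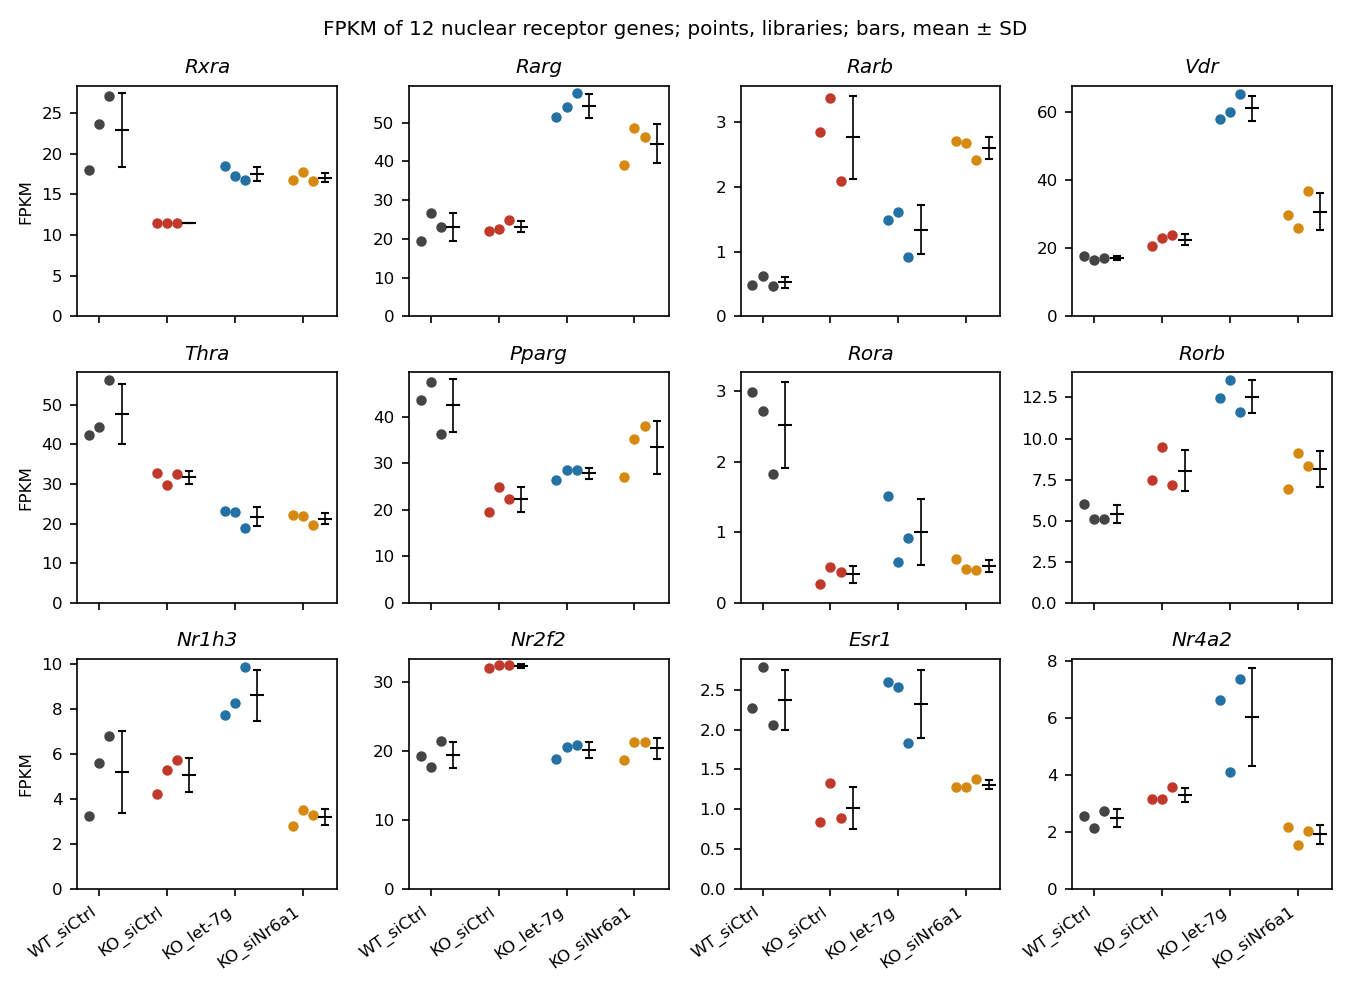
FPKM of 12 members, 1 panel for each gene, with the 4 groups along the horizontal axis; points are libraries, bars give the mean ± SD, and each vertical axis starts at 0. Nr2f2 peaks in KO_siCtrl at 32.0 to 32.6, Vdr and Rarg rise in the treated groups, and Thra declines from WT_siCtrl to the treated groups.

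Among the steroid receptors Esr1 and Nr3c1 were expressed. Esr1, the estrogen receptor alpha, was listed at 2.27, 2.79 and 2.06 FPKM in WT_siCtrl, 0.840, 1.33 and 0.891 in KO_siCtrl, 2.60, 2.53 and 1.84 in KO_let-7g and 1.27, 1.28 and 1.38 in KO_siNr6a1. The libraries of WT_siCtrl and KO_let-7g overlapped, and all lay above KO_siCtrl and KO_siNr6a1. Esr1 fell by 0.74 in KO_siCtrl (adjusted p = 0.000566) and rose by 0.72 ± 0.13 with let-7g (adjusted p = 0.00101), and the change with the siRNA was not called (adjusted p = 0.267). Nr3c1, the glucocorticoid receptor, was listed at 24.7, 20.4 and 18.4 FPKM in WT_siCtrl, 21.9, 20.7 and 17.2 in KO_siCtrl, 28.1, 26.2 and 22.2 in KO_let-7g and 20.5, 19.5 and 18.8 in KO_siNr6a1. Every KO_let-7g library stood above every KO_siCtrl library, and WT_siCtrl overlapped with both. The rise of 0.34 ± 0.13 (adjusted p = 0.0442) was not called in 13 of 24 alternatives, among them the removal of any 1 of 8 libraries: WT_siCtrl replicate 1 (adjusted p = 0.0552), KO_siCtrl replicates 1 (0.0652) and 2 (0.159), KO_let-7g replicates 0 (0.15) and 1 (0.112), and KO_siNr6a1 replicates 0 (0.0541), 1 (0.0571) and 2 (0.0586). With the replicate block this rise of Nr3c1 kept its call (adjusted p = 0.00198). Esrra, an estrogen-related orphan that drives mitochondrial genes, was at 20.3 ± 5.47, 21.2 ± 3.35, 16.5 ± 3.17 and 19.5 ± 3.44 FPKM in the 4 groups. With let-7g it differed by -0.34 (adjusted p = 0.2; 0.00466 with the replicate block), and between the treatments by -0.23 (adjusted p = 0.408; 0.035 with the block).

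Of the 21 glucocorticoid targets and enzymes listed 18 were tested, with 8 [5 to 10] higher and 5 [3 to 6] lower in KO_siCtrl (median 0.24; 29.1%, 25.2% and 0.04), 9 higher and 3 lower with let-7g (median 0.45; 27.5%, 18.2% and 0.08), 3 higher and 3 lower with the siRNA (median 0.10; 13.2%, 16.3% and -0.06) and 8 higher and 3 lower between the treatments (median 0.41; 27.6%, 13.3% and 0.12). Fkbp5, a co-chaperone that glucocorticoids induce, rose with let-7g (27.4 ± 0.525 FPKM in KO_siCtrl and 45.9 ± 3.27 in KO_let-7g; adjusted p = 1.56e-05) and with the siRNA (to 34.8 ± 1.55; adjusted p = 0.00416). Errfi1, a feedback inhibitor of the EGF receptor, went from 77.1 ± 10.4 in WT_siCtrl to 139 ± 2.48 in KO_siCtrl (adjusted p = 2.35e-05) and 55.5 ± 4.71 in KO_let-7g (adjusted p = 3.48e-06). Of the 16 targets of the estrogen-related receptors listed 14 were tested, with 3 higher and 3 lower in KO_siCtrl (median 0.02; 29.1%, 25.2% and 0.04), 1 higher and 4 lower with let-7g (median -0.11; 27.5%, 18.2% and 0.08), 3 higher and 1 lower with the siRNA (median 0.01; 13.2%, 16.3% and -0.06) and 0 higher and 5 [1 to 8] lower between the treatments (median -0.15; 27.6%, 13.3% and 0.12). Tfam, which maintains mitochondrial DNA, rose with let-7g (8.19 ± 0.751 FPKM in KO_siCtrl and 21.6 ± 1.61 in KO_let-7g; adjusted p = 5.88e-06) and with the siRNA (1.09, adjusted p = 5.31e-05). The heat shock chaperones that hold steroid receptors ready for ligand, all 14 of which were tested, gave 4 higher and 3 lower in KO_siCtrl (median 0.08; 29.1%, 25.2% and 0.04), 1 higher and 3 lower with let-7g (median -0.07; 27.5%, 18.2% and 0.08), 1 higher and 3 lower with the siRNA (median -0.12; 13.2%, 16.3% and -0.06) and 1 higher and 2 lower between the treatments (median -0.00; 27.6%, 13.3% and 0.12). Ppp5c, a phosphatase bound to Hsp90, fell with let-7g (68.2 ± 4.54 FPKM in KO_siCtrl and 51.2 ± 4.30 in KO_let-7g; adjusted p = 0.00377) and with the siRNA (-0.51, adjusted p = 0.00201).

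The NR4A receptors are induced within minutes by growth factors and stress, and they act without a classic ligand. Nr4a1 (Nur77) was listed at 4.99, 9.68 and 7.26 FPKM in WT_siCtrl, 9.87, 11.9 and 15.03 in KO_siCtrl, 14.5, 17.1 and 19.8 in KO_let-7g and 7.30, 11.2 and 8.18 in KO_siNr6a1. KO_siCtrl and KO_let-7g lay above WT_siCtrl and overlapped at 14.5 and 15.03, and KO_siNr6a1 overlapped with WT_siCtrl. Nr4a1 rose by 0.70 ± 0.22 in KO_siCtrl (adjusted p = 0.0208), a call lost without WT_siCtrl replicate 0 (0.48, adjusted p = 0.0782) or KO_siCtrl replicate 2 (0.55, 0.0821), with library weights (0.35, 0.15) and with no filter (0.0562). Its 0.46 with let-7g (adjusted p = 0.117) and -0.42 with the siRNA (adjusted p = 0.179) were called with the replicate block (0.0221 and 0.0399). Nr4a2 (Nurr1) was listed at 2.58, 2.15 and 2.75 FPKM in WT_siCtrl, 3.15, 3.15 and 3.58 in KO_siCtrl, 6.65, 4.09 and 7.38 in KO_let-7g and 2.19, 1.55 and 2.03 in KO_siNr6a1. KO_let-7g lay above all other libraries, KO_siCtrl came next, and KO_siNr6a1 overlapped with WT_siCtrl below them. Nr4a2 rose by 0.68 ± 0.17 with let-7g (adjusted p = 0.00704) and fell by 0.56 with the siRNA (adjusted p = 0.0294). That fall was not called without KO_siCtrl replicate 0 (adjusted p = 0.058), 1 (0.0592) or 2 (0.0867), or without KO_siNr6a1 replicate 1 (0.107) or 2 (0.0607). In KO_siCtrl it differed by 0.30 (adjusted p = 0.159; 0.0478 with the block).

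Immediate early genes, which respond to the same signals, had 23 of 24 genes tested, with 4 higher and 3 lower in KO_siCtrl (median 0.11; 29.1%, 25.2% and 0.04), 10 [6 to 14] higher and 0 lower with let-7g (median 0.47; 27.5%, 18.2% and 0.08), 5 [4 to 10] higher and 3 lower with the siRNA (median 0.18; 13.2%, 16.3% and -0.06) and 8 [6 to 13] higher and 1 lower between the treatments (median 0.27; 27.6%, 13.3% and 0.12). Klf4 rose with let-7g (7.98 ± 0.951 FPKM in KO_siCtrl and 37.9 ± 2.17 in KO_let-7g; adjusted p = 4.66e-06) and with the siRNA (to 23.9 ± 5.89; adjusted p = 0.000127). Atf3, a stress-induced factor, rose with let-7g (8.19 ± 0.853 FPKM in KO_siCtrl and 24.99 ± 3.89 in KO_let-7g; adjusted p = 4.82e-06) and differed between the treatments by 1.53 (adjusted p = 1.04e-05).

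Coregulators, which receptors recruit to open or close chromatin, were counted apart because they are no members. Of the 29 listed 28 were tested, with 11 [7 to 18] higher and 2 lower in KO_siCtrl (median 0.27; 29.1%, 25.2% and 0.04), 3 higher and 11 lower with let-7g (median -0.23; 27.5%, 18.2% and 0.08), 4 higher and 5 [3 to 9] lower with the siRNA (median -0.09; 13.2%, 16.3% and -0.06) and 1 higher and 7 lower between the treatments (median -0.07; 27.6%, 13.3% and 0.12). Ncoa3, a steroid receptor coactivator, rose in KO_siCtrl (6.92 ± 0.438 FPKM in WT_siCtrl and 17.5 ± 0.394 in KO_siCtrl; adjusted p = 1.33e-06). Hdac3, the deacetylase of the nuclear receptor corepressor complex, rose from 31.4 ± 3.13 in KO_siCtrl to 62.6 ± 1.27 with let-7g (adjusted p = 1.25e-05) and 62.1 ± 2.76 with the siRNA (adjusted p = 4.52e-05). Ncoa6, another coactivator, fell with let-7g (30.3 ± 2.88 FPKM in KO_siCtrl and 14.1 ± 1.66 in KO_let-7g; adjusted p = 9.93e-05). Of the 15 genes listed as reported Nr6a1 targets or germ cell genes, 3 were expressed and tested: Gpd2, Acsl5 and Dnmt3b. Gpd2, a mitochondrial glycerol phosphate dehydrogenase reported to be repressed by Nr6a1, was higher in KO_siCtrl (20.6 ± 3.12 FPKM in WT_siCtrl and 28.8 ± 3.87 in KO_siCtrl; adjusted p = 0.00936) and lower in KO_let-7g than in KO_siNr6a1 (-0.51, adjusted p = 0.00851). Dnmt3b, a DNA methyltransferase, was at 2.28 ± 0.294 FPKM in WT_siCtrl and 4.08 ± 0.607 in KO_siCtrl (adjusted p = 0.00164). Acsl5, an acyl-CoA synthetase, was higher with the siRNA (0.53, adjusted p = 0.00175) and with let-7g (0.30, adjusted p = 0.0206). With let-7g, Acsl5 missed the threshold on removing KO_siCtrl replicate 1 (adjusted p = 0.0572) or 2 (0.0599), or KO_let-7g replicate 0 (0.0677) or 1 (0.0584), and under quantile (0.0543) and median of ratios scaling (0.11). The counts of this list were 2 higher and 0 lower in KO_siCtrl (median 0.46; 29.1%, 25.2% and 0.04), 1 higher and 0 lower with let-7g (median -0.14; 27.5%, 18.2% and 0.08), 1 higher and 0 lower with the siRNA (median 0.35; 13.2%, 16.3% and -0.06) and 0 higher and 1 lower between the treatments (median -0.23; 27.6%, 13.3% and 0.12).

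The treatments were compared directly, which asks where let-7g, with many targets, differs from lowering Nr6a1 by siRNA. Of the 26 expressed members 11 were called, 42.3% beside 40.9% of all genes. They were 10 higher in KO_let-7g (27.6% of all genes) and 1 lower (13.3%). The median of all genes was 0.12 here and 0.00 under median of ratios scaling, under which 7 members were higher and 3 lower; quantile scaling gave 6 and 2 and upper quartile scaling 7 and 2. The largest differences, to be read against that shift, were those of Nr4a2 (1.24 ± 0.17, adjusted p = 0.00025), Nr1h3 (1.19), Vdr (0.98) and Nr4a1 (0.88 ± 0.22, adjusted p = 0.00887). Nr1h4 (0.67 ± 0.11, adjusted p = 0.000598), Rorb (0.58 ± 0.12, adjusted p = 0.00391) and Esr1 (0.51 ± 0.13, adjusted p = 0.00858) were also higher with let-7g, the last not under quantile scaling (0.27, adjusted p = 0.121). Rarb was the member called lower (-0.64 ± 0.15, adjusted p = 0.0053). Nr1h4 and Rarb passed the filter through the groups where they are high, as given above.

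The other 3 calls were each lost in several alternatives. The replicate block kept all 3 (adjusted p = 0.000175 for Nr1d2, 0.00173 for Nr3c1 and 0.0183 for Nr2c1). Nr1d2 (0.52, adjusted p = 0.0486) lost its call in 14 of 24 alternatives, including each of the 3 scalings and the removal of any 1 of 7 libraries: WT_siCtrl replicates 0 (0.053) and 1 (0.0576), KO_siCtrl replicate 0 (0.0592), KO_let-7g replicates 0 (0.122) and 1 (0.16), and KO_siNr6a1 replicates 0 (0.1) and 2 (0.169, adjusted p throughout). Nr3c1 (0.36, adjusted p = 0.0394) lost its call in 9 of 24, including each of the 3 scalings, KO_let-7g replicates 0 (0.136) and 1 (0.101), and KO_siNr6a1 replicates 0 (0.0614), 1 (0.0862) and 2 (0.11). Nr2c1 (0.24, adjusted p = 0.0291) lost it in 8 of 24, including each of the 3 scalings, KO_let-7g replicates 0 (0.102) and 2 (0.0655), and KO_siNr6a1 replicates 1 (0.106) and 2 (0.0568). Thra, Nr2f2, Rxra and Ppard, each called with both treatments, were not called between them. Their 95% intervals were -0.23 to 0.28, -0.20 to 0.17, -0.23 to 0.30 and -0.26 to 0.61. Rarg differed by 0.29 (adjusted p = 0.0718; 0.0134 with the replicate block) and Rxrb by 0.28 (adjusted p = 0.206; 0.0413 with the block).

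Against WT_siCtrl, which asks how far each treatment left the cells from those with Dicer1, 13 of 26 members (50%) were called in KO_let-7g, beside 58.2% of all genes. They were 9 higher (35.3% of all genes) and 4 lower (22.8%). In KO_siNr6a1 13 were called (54.3% of all genes), with 7 higher (27.0%) and 6 lower (27.4%). The median of all genes was 0.12 in KO_let-7g against WT_siCtrl and -0.01 under median of ratios scaling. With the replicate block 11 instead of 6 were lower in KO_siNr6a1, again without a share of all genes under the block. Vdr (1.78 ± 0.11, adjusted p = 3.40e-07) and Rarg (1.21 ± 0.12, adjusted p = 7.25e-06) were further from WT_siCtrl in KO_let-7g than in KO_siCtrl. So were other called members, given with the difference in KO_let-7g and then in KO_siCtrl. They were Thra (-1.10, -0.56), Nr4a1 (1.16, 0.70), Rorb (1.08, 0.49), Nr4a2 (0.98, 0.30), Rxrb (0.80, 0.15) and Nr1h3 (0.67, 0.0045). The called members nearer to WT_siCtrl in KO_let-7g than in KO_siCtrl were Nr6a1, Pparg, Rarb, Rora and Rxra. Rarb remained higher, by 0.60 with let-7g (adjusted p = 0.00432) and by 1.24 with the siRNA (adjusted p = 3.20e-05). Rora remained lower in both (-0.82, adjusted p = 0.00178; -1.2, adjusted p = 0.000146). Rarb and Rora passed the filter through the groups where they are high, so their adjusted p-values here are descriptive.

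Esr1, Nr2c1 and Nr1h4 stood near WT_siCtrl with let-7g, and their 95% intervals against WT_siCtrl were -0.31 to 0.26, -0.13 to 0.22 and -0.14 to 0.32. In KO_siNr6a1, Esr1 (-0.54, adjusted p = 0.00437) and Nr1h4 (-0.58, adjusted p = 0.000747) were still lower. Nr1h4 passed the filter through WT_siCtrl and KO_let-7g, where it is high, so its adjusted p is descriptive. Pparg was lower with let-7g than in WT_siCtrl (-0.59, adjusted p = 0.00348), and KO_siNr6a1 differed by -0.34 (adjusted p = 0.0539; 0.0241 with the replicate block). Rara was called in KO_siNr6a1 alone (0.51, adjusted p = 0.0168), and not without WT_siCtrl replicates 0 (0.0629) or 1 (0.0501) or KO_siNr6a1 replicates 1 (0.0614) or 2 (0.0512). Rxra was -0.35 in KO_let-7g (adjusted p = 0.0256), a call lost without WT_siCtrl replicates 1 (0.0758) or 2 (0.0955) or KO_let-7g replicates 1 (0.0623) or 2 (0.0744). Other calls against WT_siCtrl that the removal of 1 library ended were those of Rxra (3 libraries), Rxrb (3) and Nr1h3 (8, adjusted p 0.0519 to 0.168) in KO_siNr6a1, and of Nr1h3 in KO_let-7g (without KO_let-7g replicate 2, 0.0502). The replicate block called further differences from WT_siCtrl, given here as the difference, its adjusted p and its adjusted p with the block. In KO_let-7g they were Esrra (-0.27, 0.29, 0.0135), Nr1d1 (0.34, 0.16, 0.0498), Nr1d2 (0.30, 0.198, 0.00231), Nr1h2 (0.30, 0.183, 0.0243) and Nr3c1 (0.26, 0.0922, 0.00643). In KO_siNr6a1 they were Nr1d2 (-0.22, 0.359, 0.0143), Nr1h2 (0.31, 0.183, 0.0243), Nr2c1 (-0.20, 0.055, 0.0382) and Ppard (-0.36, 0.142, 0.0117), beside Pparg and Nr2f6 given above.

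The 19 members detected below the limit were low throughout. In 15 of them no library reached 0.5 FPKM. The other 4 were Nr3c2, the mineralocorticoid receptor (highest 1.10 FPKM, KO_siCtrl replicate 0), Nr4a3 (1.17, KO_let-7g replicate 0), Esr2, the estrogen receptor beta (1.07, WT_siCtrl replicate 2), and Nr2f1, the closest relative of Nr2f2 (0.776, KO_siCtrl replicate 0). Nr3c2 was listed at 0.116, 0.101 and 0.0447 FPKM in WT_siCtrl, 1.10, 1.05 and 0.827 in KO_siCtrl, 0.694, 0.727 and 0.382 in KO_let-7g and 0.446, 0.409 and 0.453 in KO_siNr6a1. Every KO library lay above every WT_siCtrl library, and KO_siCtrl was highest. Esr2 was listed at 1.04, 0.537 and 1.07 FPKM in WT_siCtrl, 0.341, 0.231 and 0.0481 in KO_siCtrl, 0.306, 0.186 and 0.275 in KO_let-7g and 0.223, 0.0156 and 0.0460 in KO_siNr6a1, with WT_siCtrl above every KO library. Of the receptors known from liver, adrenal gland and gut, Hnf4a, Nr1i2 and Nr5a2 reached at most 0.0412 FPKM, Nr5a1 0.0619, Nr1i3 0.151 and Ppara 0.455, while Nr1h4 was expressed. At these levels an absent signal and one below detection cannot be told apart, since reads per library are not known.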

How the data were processed

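Polyadenylated RNA of 12 libraries in 4 groups of 3 was sequenced, and the authors deposited 1 table of FPKM values with 21881 genes. The submitters' processing notes name Cufflinks 1.0.3, TopHat 1.2.0 and genome build mm9, without settings or the use of strand. Each FPKM value is relative to all fragments of its library, so a change in abundant genes moves all others. Reads per library are not known; relative depth was read from the steps between low FPKM values.

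Groups came from the sample titles, which number the libraries 0, 1 and 2. No label says whether the libraries are separate cultures. The p-values therefore reflect the spread among these libraries alone, which may be technical. Deviations from the group means correlated between same-numbered libraries (0.127 to 0.465 over the 12 pairs of the first 4 comparisons, above the limit of 0.1), so the numbers were taken to pair libraries, from the data. Over the 18 pairs of all 6 comparisons the lowest was 0.092, for replicate 2 of WT_siCtrl and KO_siNr6a1, below that limit. The block was fitted for KO_siNr6a1 against WT_siCtrl all the same. A fit with the number as a block is given where it changes a call, and for some calls that other alternatives ended. The block itself ended no call of a member.

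The 11801 genes that reached 1 FPKM in 3 or more libraries entered limma 3.58.1 in R 4.3.3, on the scale log2(FPKM + 1), 1 coefficient per group over all libraries, 8 residual degrees of freedom, a variance trend and Benjamini-Hochberg adjustment over all genes. The fit was checked on simulated data. Nr6a1 was also compared by two-sided exact permutation tests.

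The members, the 11 gene lists and the marker lists were chosen with earlier results of these data known. Named genes were all expressed members, with library values for those called in the first 4 comparisons or among the 5 most abundant; other members reaching 0.5 FPKM; Dicer1; up to 3 called genes with the smallest adjusted p of each list and comparison, of which examples are printed; and the 5 genes most like Nr6a1. Alternatives were pseudocounts, filters, scalings, variance settings, the block and the removal of each library. 3′ UTRs came from GENCODE M21, matched by symbol for 10222 tested genes (86.6%) and all 46 members. That annotation uses another build than the table, so no genome coordinates are given. The planned comparison of DNA-binding domains was not done, because no protein table was used here. Results for 2 genes of these lists are not reported here, and the list counts include them.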

Additional observations from a re-analysis of the deposited data

How the results depend on the processing

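The 77 called member differences kept their direction in all 1827 alternatives and lost their call in 108, spread over 19 differences. Of the 41 printed differences that were not called, 31 became called in at least 1 alternative, 18 of them in one other than the replicate block. Another 31 of their 981 alternatives changed the sign, in 9 differences, and the cause was not tested. Quantile, upper quartile and median of ratios scaling gave -0.031, -0.057 and -0.040 for Rarg in KO_siCtrl against WT_siCtrl; -0.050, -0.029 and -0.075 for Nr2c1 and -0.042, -0.033 and -0.082 for Nr2f2 in KO_let-7g against WT_siCtrl; and -0.050, -0.020 and -0.11 for Thra and -0.052, -0.011 and -0.098 for Rxra in KO_let-7g against KO_siNr6a1. Quantile scaling gave -0.029 for Nr6a1 between the treatments, and library weights -0.15 for Rarg. Removing each library in turn gave -0.100 to 0.120 for Rarg in KO_siCtrl against WT_siCtrl. In KO_let-7g against WT_siCtrl it gave -0.016 to 0.148 for Nr1h4, -0.014 to 0.118 for Nr2f2 and -0.092 to 0.085 for Esr1. Between the treatments it gave -0.029 to 0.118 for Thra, -0.0025 to 0.065 for Rxra, -0.076 to 0.028 for Nr2f2 and -0.011 to 0.258 for Nr6a1, whose ratio of means was 0.986 to 1.26. Counts of members that moved by over 1.5 times were as follows. Shares of all genes were not counted under the alternatives, so how far these counts follow all genes was not tested. With the replicate block, 10 were higher in KO_siCtrl than in WT_siCtrl, 11 lower in KO_siNr6a1 than in WT_siCtrl and 3 lower in KO_let-7g than in KO_siNr6a1; the block ended no call of a member. A mean FPKM of at least 5 left 4 lower in KO_siCtrl than in WT_siCtrl, 2 lower in KO_siNr6a1 than in WT_siCtrl and 0 lower between the treatments, where Rarb was no longer tested. Library weights gave 8 higher with the siRNA and 4 lower between the treatments. The 1 member lower between the treatments became 2 under quantile scaling (with 6 higher), under upper quartile scaling and with only the 2 groups compared, 3 under median of ratios scaling, and 1 to 2 on removing 1 library. With no filter, 7 were lower in KO_let-7g than in WT_siCtrl. The 116 differences of list genes and Dicer1 kept their direction in all 2760 alternatives, and 10 lost a call in at least 1; of 24 list counts of at least 5, 13 moved by over 1.5 times in at least 1 alternative. Because reads per library are not known, no interval from counting could be given, and levels near 1 FPKM are the least certain.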

Other observations

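In several members below the limit for expression, every library of 1 group lay above all others. They were singled out after their values were seen, in a fit without the filter on low FPKM, and all lie far below 1 FPKM. The adjusted p-values of that same limma fit only describe these members and give no separate support. Esrrb, an orphan receptor of pluripotent cells whose 3′ UTR holds 1 8mer match of let-7, was listed at 0.178, 0.269 and 0.223 FPKM in KO_siCtrl and at no more than 0.00352 in the other 9 libraries; the adjusted p was 1.08e-05 against WT_siCtrl, 3.35e-05 for let-7g and 0.000127 for the siRNA against KO_siCtrl. Thrb, the thyroid hormone receptor beta, was listed at 0.164 to 0.232 in WT_siCtrl and at no more than 0.0107 in the KO groups (adjusted p = 9.21e-06 in KO_siCtrl against WT_siCtrl). Pgr, the progesterone receptor, was listed at 0.0276 to 0.0322 in WT_siCtrl and at no more than 0.00458 in the KO groups. Ppara, the fatty acid receptor of liver, was listed at 0.305 to 0.455 in KO_let-7g and at 0.0979 to 0.184 in the other libraries (adjusted p = 0.00213 in KO_let-7g against KO_siCtrl). Relative depth was 1.34 to 1.82 in KO_let-7g and 1 to 1.57 in the other libraries, and its part in these values was not tested.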
